A study of Bubalus bubalis with 6 samples.

Results

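The genes described here are the parts list of the sperm tail and of sperm formation: axonemal and cytoplasmic dyneins, radial spoke and nexin-link proteins, tektins, outer dense fibre proteins, sperm-associated (SPAG) and spermatogenesis-associated (SPATA) genes, intraflagellar transport (IFT) proteins, kinesins, tubulins and their modifying enzymes, and testis-specific kinases. They were chosen by gene symbol, from the names given to the array's probes, and no measured value entered the rule. The list was, however, drawn up with earlier results of these data known. The rule matched 84 of the 7932 named genes, with 205 of the 19762 named probes and of 177440 probes in all. A symbol rule of this kind also takes in genes that dividing or non-ciliated cells use, such as the mitotic kinesins, the gamma-tubulin complex and the cytoplasmic dynein heavy chain. Of the 84 symbols, 77 are listed in a RefSeq gene table for buffalo (assembly NDDB_SH_1).

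DNA was measured from the frozen semen of 6 buffalo (Bubalus bubalis) bulls, with 3 subfertile bulls (numbered 1, 4 and 5 in the sample names) and 3 high-fertile bulls (2, 3 and 5). The 2 bulls numbered 5 are different animals. Sheared DNA was pulled down with an antibody against 5-methylcytosine, a method known as meDIP, and the immunoprecipitated (IP) DNA was hybridised in Cy5 beside the untreated input DNA of the same bull in Cy3, on 1 array per bull. The labels give the cell as sperm and name no breed, age, fertility measure or genotype beyond the fertility class, so the study compares bulls by class and n is 3 bulls on each side.

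All values below are log2(IP/input), centred on each array's median over all probes. A higher value means more antibody-bound DNA relative to input at that place, and it is not a share of methylated cytosines. A probe was tested if input DNA gave a signal well above background in each of the 6 bulls. It also had to have no spot flagged as non-uniform, in either dye, on any array. A gene region is the mean of its tested probes. By that filter 80 probes in 47 of the 84 genes could be tested, and 37 genes had none. The filter did not ask for IP signal, which was well above background on all 6 arrays for 45 of the 80 probes. Of the 47, 30 rest on 1 tested probe, 10 on 2 and 7 on 3 or more. The share of probes that passed was 39.0% for these genes, 38.7% for all named probes and 62.4% for all probes. Of the 205 probes, the share with input well above background ran from 44.9% in subfertile bull 4 to 81.5% in high-fertile bull 5, and the share with IP well above background from 25.9% in high-fertile bull 2 to 63.4% in subfertile bull 1. No spot of these genes was saturated.

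The scan dates in the file headers divide the arrays into a first session (subfertile bull 4, high-fertile bulls 2 and 3, on 1 date) and a later session (subfertile bulls 1 and 5, high-fertile bull 5, on 2 dates). Across the 47 regions, values of bulls of the same session correlated at 0.55 to 0.79 (Pearson's r across genes, 6 pairs), and values of bulls of different sessions at -0.24 to 0.05 (9 pairs). Genes are not independent replicates and each pair shares its arrays, so these are descriptions. Because the later session holds 2 of the 3 subfertile bulls and 1 of the 3 high-fertile bulls, the plot of class differences gives each region's difference with and without the session as a term. In 14 of the 47 regions that term turned the sign, 8 of them to above 0 and 6 to below, and none of these differences was called in either fit. By the codes in the file names, the arrays lay on 2 slides. Subfertile bull 5 and high-fertile bull 5 were on one and the other 4 bulls on the other. The extraction software was run with its CGH protocol for subfertile bull 1 and its ChIP protocol for the other 5, as the headers record.

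A sperm tail is built around the axoneme, a ring of doublet microtubules about a central pair. Dynein arms on each doublet walk along the next one, and nexin links and radial spokes turn that sliding into bending, while tektins stiffen the doublets and outer dense fibres and the fibrous sheath surround them in mammalian sperm. The tail is assembled in the spermatid with the help of intraflagellar transport, in which kinesin-2 carries cargo outwards and cytoplasmic dynein returns it. Mature sperm carry out little or no transcription, and their DNA methylation is set in the male germ line before the tail is built.

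The probes shown here are 60 bases long and were picked for class separation or for level, with a pair of IFT57 probes added. CpG content differs among them. Capitals mark each CpG, the pair at which vertebrate DNA is mostly methylated. Coordinates are those of the array files, counted from 1, and no source used here names their genome build or its species. The chromosome names of these genes reach chr29. CpGs were counted in the probe sequences, and whether the DNA of these bulls has the same bases was not tested. The files name no exon, intron or promoter class. The first 3 are the probes of the regions in which the fertility classes did not overlap: KIF11 (chr26:14474093-14474152), KIF3B (chr13:62648074-62648133) and SPAG7 (chr19:26808348-26808407).
KIF11 probe 1: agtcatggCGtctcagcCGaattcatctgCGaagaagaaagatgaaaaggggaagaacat
KIF3B probe 3: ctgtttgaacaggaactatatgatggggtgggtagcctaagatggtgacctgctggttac
SPAG7 probe 2: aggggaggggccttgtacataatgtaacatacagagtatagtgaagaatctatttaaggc

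The next 4 belong to the regions with the highest mean of the 6 bulls: IFT81 (chr17:56897153-56897212), KIF20A (chr7:48928759-48928818), KIF17 (chr2:136409475-136409534) and KIF2C (chr3:108127695-108127754).
IFT81 probe 4: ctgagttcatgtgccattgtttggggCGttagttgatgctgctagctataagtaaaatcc
KIF20A probe 1: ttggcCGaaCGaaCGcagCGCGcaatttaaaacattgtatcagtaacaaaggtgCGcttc
KIF17 probe 2: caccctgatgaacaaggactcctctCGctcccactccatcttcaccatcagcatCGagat
KIF2C probe 1: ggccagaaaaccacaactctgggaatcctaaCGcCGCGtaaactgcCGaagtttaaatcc

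The following 4 are the lowest probes of the regions with the lowest mean: TEKT5 (chr25:10470759-10470818), TUBGCP4 (chr21:55593921-55593980), SPATA24 (chr7:49986489-49986548) and TUBB2B (chr23:28226701-28226760).
TEKT5 probe 1: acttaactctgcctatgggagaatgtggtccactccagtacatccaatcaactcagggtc
TUBGCP4 probe 3: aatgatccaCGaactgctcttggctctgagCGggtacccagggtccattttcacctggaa
SPATA24 probe 1: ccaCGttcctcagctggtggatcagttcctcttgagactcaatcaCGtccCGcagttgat
TUBB2B probe 4: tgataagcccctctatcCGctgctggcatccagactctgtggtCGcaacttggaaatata

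The last pair, chosen after the values were seen, are probes of 1 gene with the same CpG count and different levels: IFT57 probe 1 (chr1:55412691-55412750) and probe 2 (chr1:55414360-55414419).
IFT57 probe 1: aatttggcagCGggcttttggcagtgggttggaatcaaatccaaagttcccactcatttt
IFT57 probe 2: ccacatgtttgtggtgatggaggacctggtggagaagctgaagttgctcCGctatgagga

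The main question of the design is whether sperm DNA of subfertile and high-fertile bulls differs in methylation. In the tail and spermatogenesis genes no region passed the test: 0 of 47 were called by limma at a Benjamini-Hochberg adjusted p under 0.05, against 0.0% of the 4286 named gene regions tested. The smallest adjusted p of the 47, from the same limma fit, was 0.9999. At an unadjusted p under 0.05 there was 1 member, KIF3B, against 0.793% of all regions. The median difference, subfertile minus high-fertile, was 0.12 over the 47 regions (31 above 0 and 16 below) and 0.02 over all 4286. With session as a term limma again called 0 of 47 (1 at an unadjusted p under 0.05, against 2.66% of all regions), with a median difference of 0.09 in these genes and 0.03 in all regions. Single probes gave the same count, 0 of 80 called, with 3 at an unadjusted p under 0.05, against 1.84% of all tested probes.

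The intervals give the precision of this comparison. The median standard error was 0.38. For 13 of the 47 regions the whole 95% interval fell inside 1 log2 unit on either side of 0, and for 41 it fell inside 2 units. In this fit, the interval of most of these genes therefore included differences of 1 unit or more. With session as a term the median standard error was 0.29. The interval then fell inside 1 unit for 28 of the 47 and inside 2 units for 45. Nothing in the labels says how bulls were picked for each class, so the p-values speak only of these 6 animals. They set the class difference against the spread within classes. With 1 array per bull, that spread mixes bull, scan session and array.

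**Figure D1:**
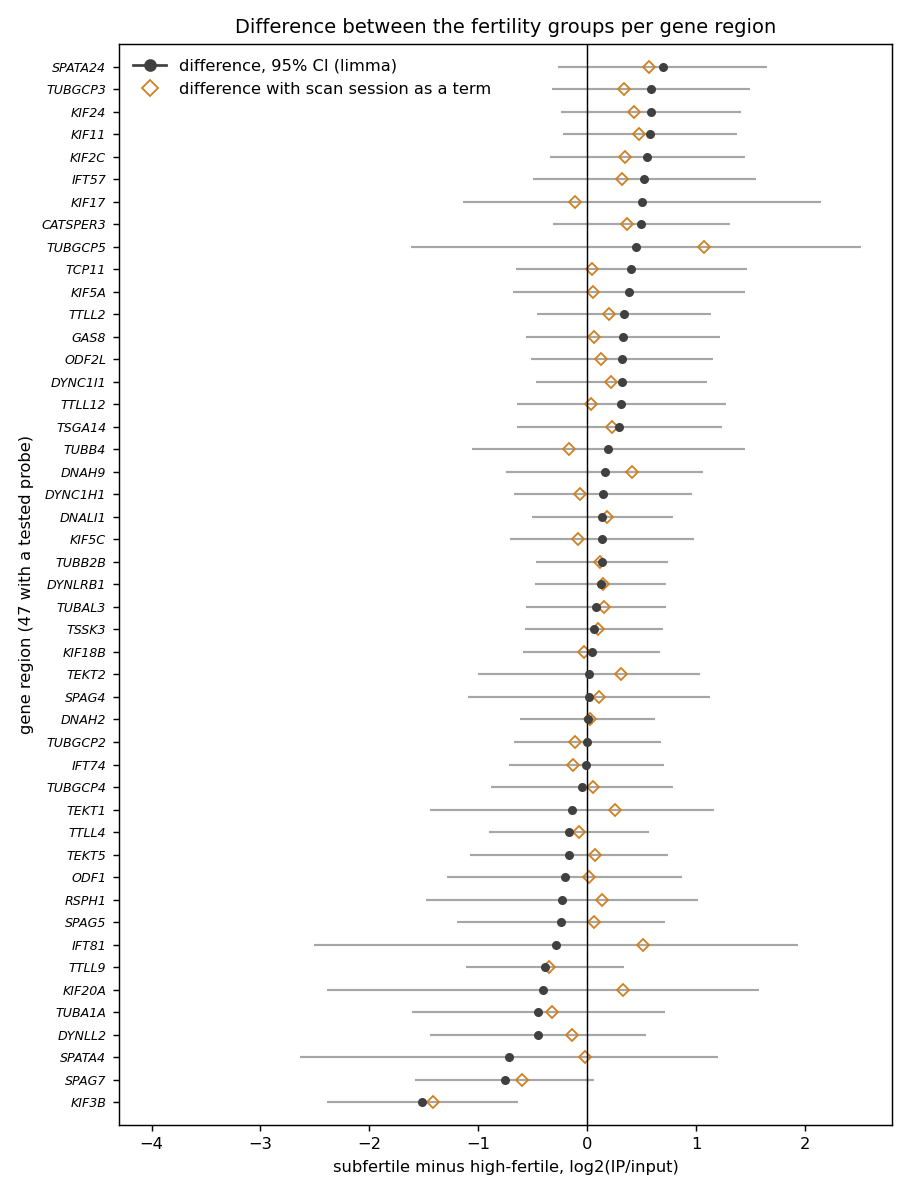
Difference between subfertile and high-fertile bulls in log2(IP/input) for each of the 47 gene regions (filled circle, bar = 95% confidence interval from limma) and the difference with scan session as a term (open diamond). The KIF3B interval, -2.39 to -0.64, is the single interval of the 47 that does not reach 0, and 31 of the circles lie to the right of 0.

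The 3 bulls of each class did not overlap in 3 of the 47 regions (6.38%), against 3.87% of all regions. KIF3B and SPAG7 were lower in every subfertile bull (2 of 47, against 1.94% of all regions), and KIF11 was higher in every subfertile bull (1 of 47, against 1.94%). None of the 3 was called after adjustment.

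KIF3B encodes a motor subunit of heterotrimeric kinesin-2, the engine of outward intraflagellar transport. Its region stood at -0.39, -0.71 and -0.47 in subfertile bulls 1, 4 and 5, against 1.64, 0.93 and 0.39 in high-fertile bulls 2, 3 and 5. All subfertile bulls lay below 0 and all high-fertile bulls above it, with the high-fertile bull of the later session nearest to the subfertile ones. The difference was -1.52 (SE 0.37, unadjusted p = 0.00447 in the limma fit). It was -1.998 within the first session and -0.83 within the later session (adjusted p = 0.157 in limma), and leaving out 1 bull at a time gave -1.81 to -1.19. IP was well above background in 2 of the 3 subfertile spots and in all 3 high-fertile spots. With normexp background correction the difference shrank to -0.41, and it was -0.87 over all 4 KIF3B probes, of which the other 3 did not pass the filter. No other probe of the array lies within 1000 bp of this probe, which holds no CpG.

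SPAG7, listed as a sperm-associated antigen, was measured at -0.16, 0.12 and -0.84 in subfertile bulls 1, 4 and 5, against 0.79, 0.37 and 0.24 in high-fertile bulls 2, 3 and 5. The classes are separated by the narrow gap between subfertile bull 4 and high-fertile bull 5. The difference was -0.76 (SE 0.35), -0.60 with session as a term, and 0.02 when the 2 other SPAG7 probes, which failed the filter, were averaged in. Around this probe the array holds 13 other tested probes within 1000 bp, 6 of them sharing bases with it. The differences of the 13 ran from -0.57 to 0.90, with 8 below 0 and 5 above. The 6 that share bases were all below 0, from -0.57 to -0.15, and the 5 above 0 share none.

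KIF11 is the bipolar kinesin that pushes spindle poles apart in cell division. It lay at -0.15, -0.14 and -0.13 in subfertile bulls 1, 4 and 5, against -0.51, -1.33 and -0.32 in high-fertile bulls 2, 3 and 5. Subfertile bulls were nearly equal, and the spread was all among high-fertile bulls. The difference was 0.58 (SE 0.34) and 0.27 without high-fertile bull 3. IP was well above background in 2 of 3 subfertile spots and 1 of 3 high-fertile spots. The 5 tested neighbours, which all share bases with this probe, gave differences of -0.14 to 1.12, 2 below 0 and 3 above. The difference of 1.12 is that of the neighbour that starts at the same base.

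**Figure D2:**
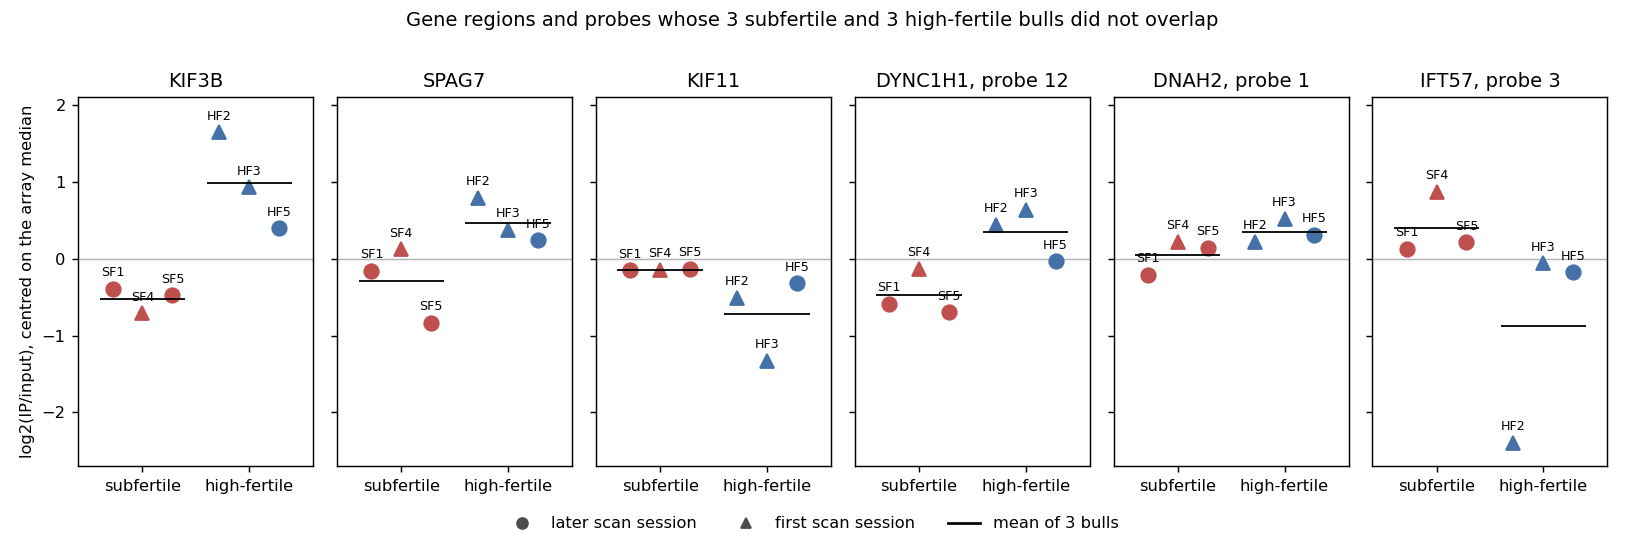
log2(IP/input) per bull for the 3 gene regions and 3 further probes whose classes did not overlap, subfertile bulls left and high-fertile bulls right; circles are later-session arrays, triangles first-session arrays, and lines the means of 3 bulls. KIF3B shows the widest gap, and the IFT57 probe owes its low high-fertile mean to bull 2 at -2.40.

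Among single probes, 6 of 80 (7.50%) had classes that did not overlap, against 5.78% of all tested probes. The 3 not yet described lie in genes with several probes. Probe 3 of IFT57, an IFT-B subunit, was at 0.13, 0.87 and 0.21 in subfertile bulls 1, 4 and 5, against -2.40, -0.06 and -0.18 in high-fertile bulls 2, 3 and 5. High-fertile bull 2 alone stands far below the rest, and the difference of 1.28 (SE 0.58) was 0.52 without it. Its 6 tested neighbours within 1000 bp, 5 of which share bases with it, gave -0.24 to 0.20.

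Probe 12 of DYNC1H1, the heavy chain of cytoplasmic dynein 1, was at -0.59, -0.13 and -0.70 in subfertile bulls 1, 4 and 5, against 0.44, 0.64 and -0.04 in high-fertile bulls 2, 3 and 5. Subfertile bull 4 and high-fertile bull 5 are the closest. The difference was -0.82 (SE 0.32). Of its 9 tested neighbours, the 3 that share bases with it were below 0, from -0.88 to -0.06, with the one that starts at the same base nearest to 0. The other 6 were above 0, up to 0.59. Probe 1 of DNAH2, an inner-arm dynein heavy chain, differed by -0.30 (SE 0.30).

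The roles are taken in turn. The axonemal dynein chains, which power the beat, had 3 of 5 genes tested. DNAH2 differed by 0.00, the outer-arm heavy chain DNAH9 by 0.16 and the inner-arm light intermediate chain DNALI1 by 0.14. DNAH9 gave 0.41 and DNALI1 0.18 with session as a term. IP was well above background in 2 of 3 subfertile spots and 0 of 3 high-fertile spots of the tested DNAH9 probe. DNAH2 rests on 3 probes and was at -0.17, 0.19 and 0.13 in subfertile bulls 1, 4 and 5, against -0.03, 0.06 and 0.11 in high-fertile bulls 2, 3 and 5. These bulls are interleaved, and the interval of the difference, -0.62 to 0.62, is among the narrower ones here.

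Cytoplasmic dynein had 4 of 7 genes tested, with differences of -0.45 (the light chain DYNLL2) to 0.31 (the intermediate chain DYNC1I1), which were -0.14 and 0.22 with session as a term. DYNC1H1, measured by 11 probes, was at 0.47, -0.01 and 0.54 in subfertile bulls 1, 4 and 5, against 0.21, -0.29 and 0.66 in high-fertile bulls 2, 3 and 5. Its bulls split by session and not by class, with the 3 later-session bulls highest. The difference was 0.14 and turned to -0.06 with session as a term. DYNLRB1, a roadblock light chain with 3 probes, differed by 0.12, with an interval of -0.48 to 0.73.

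**Figure D3:**
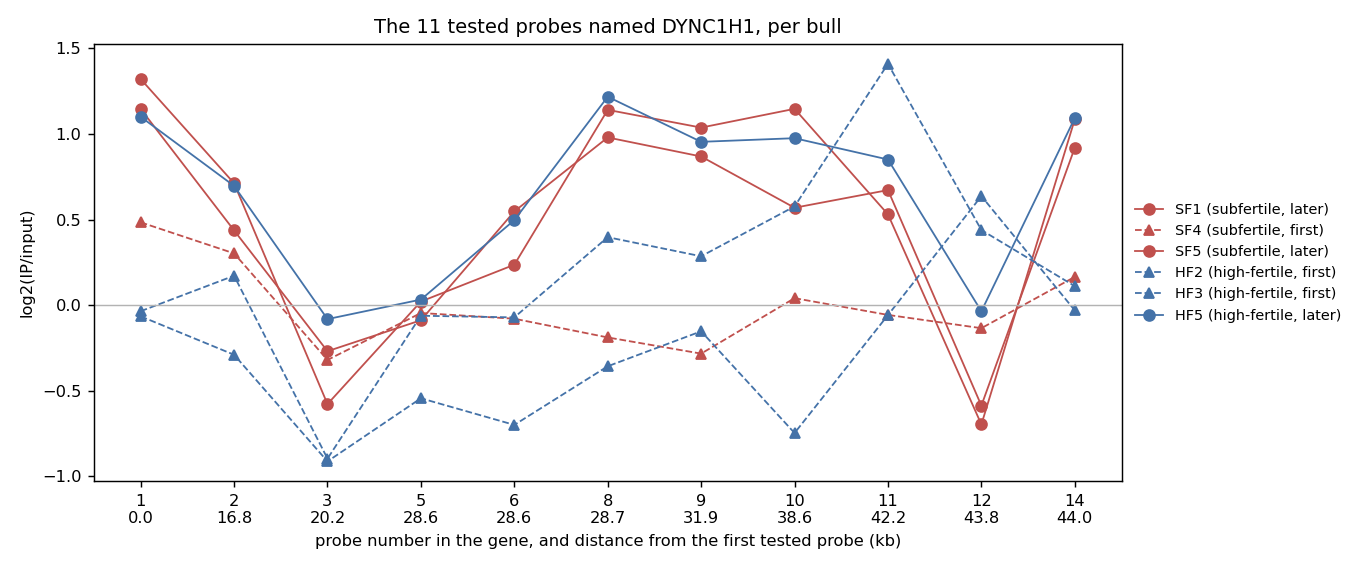
log2(IP/input) of the 11 tested DYNC1H1 probes in each bull, in order along the gene, with probe number and distance from the first tested probe in kb; red lines are subfertile bulls, blue lines high-fertile bulls, solid lines later-session arrays and dashed lines first-session arrays. All later-session bulls lie above all first-session bulls at probes 1, 2, 6, 8, 9 and 14, and at probe 12 the highest values are those of high-fertile bulls 2 and 3.

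Nexin-link, central pair and radial spoke genes had 2 of 7 tested. GAS8, a subunit of the nexin-dynein regulatory complex, was at 0.72, 0.17 and 0.89 in subfertile bulls 1, 4 and 5, against 0.07, -0.15 and 0.90 in high-fertile bulls 2, 3 and 5. Here too the later-session bulls are the 3 highest. GAS8 differed by 0.33 and by 0.06 with session as a term. RSPH1, a radial spoke head protein, differed by -0.24 and by 0.14 with session as a term.

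All 7 tektin and outer dense fibre genes were tested, and their differences ran from -0.24 to 0.32 with 3 above 0 and 4 below. With session as a term all 7 were above 0, from 0.02 to 0.31. ODF1, the major outer dense fibre protein, differed by -0.21, and by 0.02 with session as a term. The tektins TEKT1, TEKT2 and TEKT5 differed by -0.14, 0.02 and -0.17, and with session as a term by 0.25, 0.31 and 0.07. SPAG5, a spindle protein grouped here by its symbol, differed by -0.24, and by 0.06 with session as a term.

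In the SPATA class 2 of 7 genes were tested. SPATA24 had the largest positive difference of the 47, at -0.48, 0.08 and -0.22 in subfertile bulls 1, 4 and 5, against -1.10, -1.48 and -0.12 in high-fertile bulls 2, 3 and 5. High-fertile bull 5 lies among the subfertile bulls, so the classes overlap. The difference was 0.69 (SE 0.41), 0.57 with session as a term, 1.36 within the first session and -0.23 within the later session. SPATA4 differed by -0.72 and by -0.02 with session as a term. CATSPER3, a pore subunit of the calcium channel that drives hyperactivated swimming, was at -0.17, -0.36 and 0.14 in subfertile bulls 1, 4 and 5, against -1.19, -0.35 and -0.33 in high-fertile bulls 2, 3 and 5, and the classes overlap. It differed by 0.50 (SE 0.35), and by 0.36 with session as a term.

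The IFT genes had 3 of 5 tested, with differences of 0.52 for IFT57, -0.01 for IFT74 and -0.29 for IFT81. These became 0.32 for IFT57, -0.13 for IFT74 and 0.51 for IFT81 with session as a term. Kinesins had 9 of 19 tested, 7 above 0 and 2 below, with a median difference of 0.38. With session as a term 5 were above 0 and 4 below, and the median was 0.05. KIF17, a second kinesin-2 motor, differed by 0.50 and by -0.11 with session as a term. KIF5C, a conventional kinesin heavy chain, differed by 0.13 and by -0.09 with session as a term.

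Tubulins and gamma-tubulin complex genes had 8 of 12 tested, 6 above 0 and 2 below, from -0.45 (TUBA1A) to 0.58 (TUBGCP3). With session as a term 5 were above 0 and 3 below, TUBA1A gave -0.33 and TUBGCP3 0.34, and TUBGCP5 was highest at 1.07. TUBB2B, a beta-tubulin with 3 probes, was at -0.33, -0.42 and -0.60 in subfertile bulls 1, 4 and 5, against -0.62, -0.64 and -0.48 in high-fertile bulls 2, 3 and 5. It was low in every bull and differed by 0.13, with an interval of -0.48 to 0.74. The tubulin ligases had 4 of 5 tested, 2 above 0 and 2 below, and TTLL4, which starts glutamate side chains on tubulin, differed by -0.17, and by -0.08 with session as a term. Of the testis kinases and testis-specific genes 3 of 5 were tested, and TCP11 (0.40), TSGA14 (0.29) and the kinase TSSK3 (0.06) all lay above 0 without passing the test. Fitted with session as a term, TCP11 gave 0.05, TSGA14 0.22 and TSSK3 0.09.

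TUBGCP5, a gamma-tubulin complex subunit, was the 1 member called when the later session was fitted alone, and it was named after its values were seen. It was at 0.01, 0.58 and -1.39 in subfertile bulls 1, 4 and 5, against -0.77, 1.01 and -2.38 in high-fertile bulls 2, 3 and 5. The later-session call compares subfertile bulls 1 and 5 with the single high-fertile bull 5, the lowest of all. There the difference was 1.69 (SE 0.39, adjusted p = 0.0288 in limma), and 95 of all regions (2.22%) were called in the same fit. Over all 6 bulls it was 0.45 (SE 0.88), in the first session alone 0.46, and without high-fertile bull 5 it was -0.39. IP was well above background in 1 of 3 spots of each class. Limma called 0 of 47 in the first session alone, with 2 at an unadjusted p under 0.05, against 2.71% of all regions. It called 0 of 47 for the interaction of class and session, with 2 at an unadjusted p under 0.05, against 4.18% of all regions.

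Other genes of the same pathway, taken from a list of 84 symbols for cilia, sperm sheath, acrosome and sperm chromatin, were looked up beside them. The array held 42 and 21 were tested. None of the 21 was called in either direction, 8 differed above 0 and 13 below, and the median was -0.08. Of the 21, only TTC21B and ARMC2 had classes that did not overlap, against 3.87% of all regions. They are described for that reason, after the values were seen. TTC21B, an IFT-A subunit used in return transport, was at -1.11, -1.17 and -1.27 in subfertile bulls 1, 4 and 5, against 1.19, 1.91 and -0.89 in high-fertile bulls 2, 3 and 5. The classes do not overlap, but high-fertile bull 5, from the later session, sits beside the subfertile bulls. TTC21B rests on 1 tested probe. Its difference was -1.92 (SE 0.67) and -1.51 with session as a term. ARMC2, needed for tail assembly in mice, was at 0.28, 0.29 and 0.29 in subfertile bulls 1, 4 and 5, against -0.59, -0.03 and 0.01 in high-fertile bulls 2, 3 and 5, a difference of 0.49 (SE 0.29) without overlap.

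A second comparison that these arrays allow is between scan sessions, with fertility class as a term. It called 8 of the 47 regions (17.0%), against 20.1% of all regions. Of the 8, 3 were higher in the later session, where 7.3% of all regions were higher, and 5 were lower, where 12.8% were lower. That split depends on the scaling: 2 of 13 calls were higher when arrays were centred on tested probes, and 9 of 15 with normexp background correction. The later-session bulls lay wholly beyond the first-session bulls in 24 of the 47 (51.1%), against 48.6% of all regions. Single probes were called for 12 of 80, against 8.08% of all tested probes. The count rests on few arrays: it was 14 without high-fertile bull 2, 8 with all 6 bulls, 4 without subfertile bull 1, 2 without subfertile bull 5, and 0 without subfertile bull 4 or without high-fertile bull 5. The share of all regions called in these smaller fits is not given here, so the change in count does not set these genes apart.

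KIF17 had the largest positive session difference. It was at 1.35, 1.52 and 1.70 in later-session bulls (subfertile 1 and 5, high-fertile 5), against -0.25, -0.07 and -0.52 in first-session bulls (subfertile 4, high-fertile 2 and 3). The sessions are separated by more than 1 unit. In the later session both subfertile bulls lay below the high-fertile one, and in the first session the subfertile bull lay between the high-fertile ones. The session difference was 1.84 (SE 0.25, adjusted p = 0.0106 in limma). The 3 other tested probes nearby, which share bases with it, differed between the session means by 1.61 to 1.77.

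TCP11 and KIF5A moved the same way. TCP11 was at 0.21, 0.21 and 0.25 in later-session bulls (subfertile 1 and 5, high-fertile 5), against -0.77, -0.82 and -0.998 in first-session bulls (subfertile 4, high-fertile 2 and 3). The difference was 1.07 (SE 0.22, adjusted p = 0.0225 in limma). It was -0.39 over all TCP11 probes with no filter. KIF5A differed by 1.01 (SE 0.26), and its 6 tested neighbours, all sharing bases with it, by 0.98 to 1.46.

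IFT81, which binds tubulin for transport into the tail, had the largest session difference. It was at 0.14, 0.09 and -0.07 in later-session bulls (subfertile 1 and 5, high-fertile 5), against 2.85, 1.25 and 2.76 in first-session bulls (subfertile 4, high-fertile 2 and 3). Later-session bulls lay near the array median and first-session bulls far above it. The difference was -2.41 (SE 0.43, adjusted p = 0.0148 in limma).

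KIF20A, a kinesin of cell division, repeated that pattern at 0.10, 0.11 and -0.40 in later-session bulls (subfertile 1 and 5, high-fertile 5), against 2.14, 1.47 and 2.50 in first-session bulls (subfertile 4, high-fertile 2 and 3). The difference was -2.21 (SE 0.33, adjusted p = 0.0113 in limma). Its probe holds 6 CpGs and that of IFT81 holds 1. SPATA4 (-2.09), DYNLL2 (-0.93) and SPAG5 (-0.89) were also lower in the later session. IFT81, KIF20A, SPATA4 and DYNLL2 have no other array probe within 1000 bp, and the single such neighbour of SPAG5 differed by -0.24. In the other pathway list CCDC151, a dynein docking factor, was called higher in the later session, and ARMC4 and LDHC were among those called lower.

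**Figure D4:**
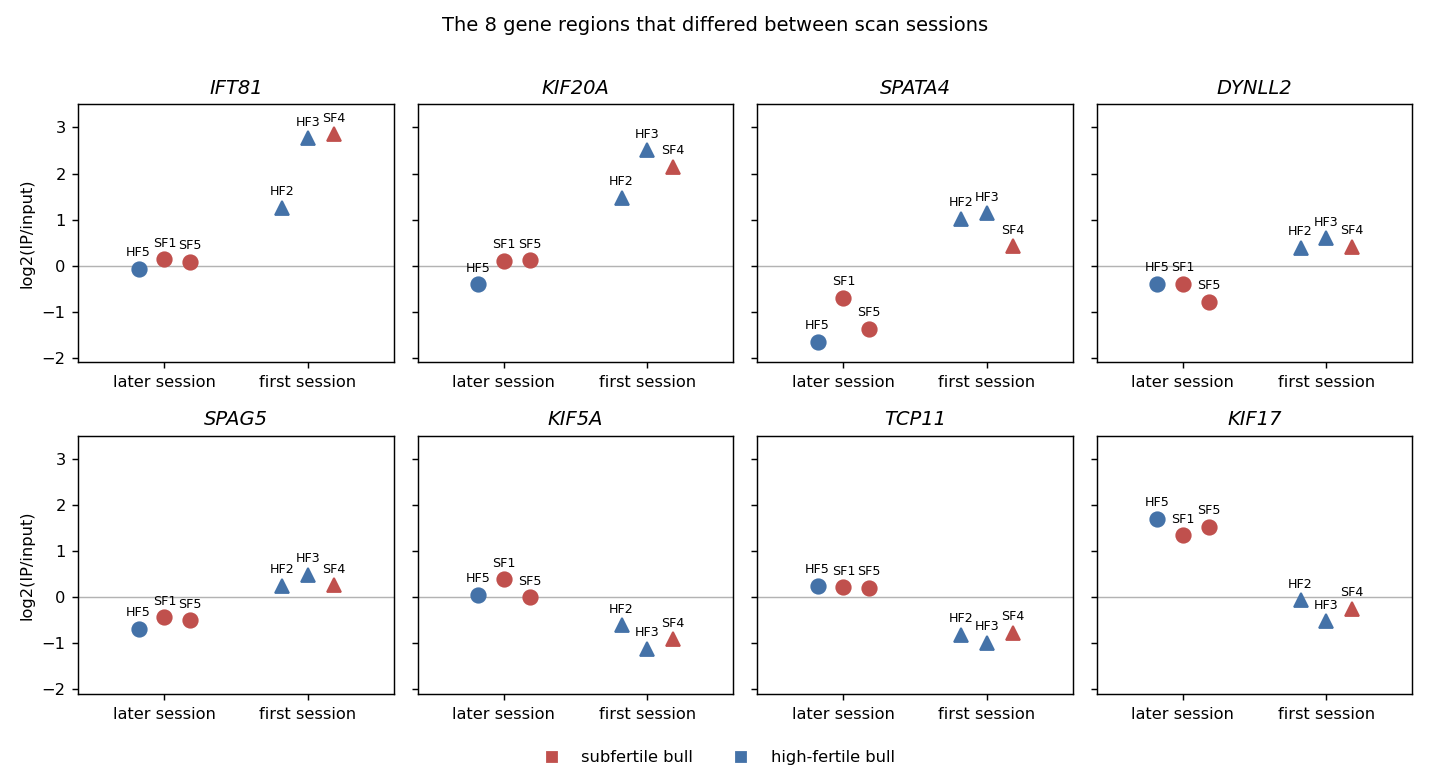
log2(IP/input) per bull for the 8 gene regions that differed between scan sessions, later session left and first session right, with red symbols for subfertile and blue for high-fertile bulls. Of the 8, 5 regions are lower and 3 higher in the later session.

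The level itself was compared next. The median of the 47 regions minus the median of all named regions was -0.01, 0.12 and 0.05 in subfertile bulls 1, 4 and 5, and -0.04, -0.13 and 0.07 in high-fertile bulls 2, 3 and 5. It averaged 0.0085 ± 0.089 (SD, n = 6 bulls), so the genes as a list lay at the level of all named genes to within the spread between bulls. None of the 47 lay above 0 in all 6 bulls, against 3.22% of all regions, and 8 lay below 0 in all 6, against 18.8%.

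The 4 highest means of the 6 bulls were those of IFT81 (1.17), KIF20A (0.99), KIF17 (0.62) and KIF2C (0.52). For the first 3 the mean averages sessions that differ, as given above. KIF2C, a microtubule depolymerase, was at 0.74, 0.74 and 0.91 in subfertile bulls 1, 4 and 5, against -0.07, -0.20 and 1.01 in high-fertile bulls 2, 3 and 5. High-fertile bulls 2 and 3 are low and the other bulls are high. The 4 tested probes that share bases with the KIF2C probe differed between the classes by 0.41 to 0.73. Between the session means those 4 probes differed by 0.86 to 1.29. Their median in subfertile bull 4 was 0.14, against 0.75 to 0.88 in later-session bulls. The class difference of KIF2C itself was 0.55, and 0.35 with session as a term. Its session difference was 0.61 and was not called.

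The 4 lowest means were those of TEKT5 (-0.82), TUBGCP4 (-0.66), SPATA24 (-0.55) and TUBB2B (-0.51). TEKT5, a tektin of sperm tails, was at -1.15, -0.64 and -0.93 in subfertile bulls 1, 4 and 5, against -0.62, -0.16 and -1.42 in high-fertile bulls 2, 3 and 5. It was below 0 in every bull, and its probe holds no CpG. TUBGCP4 was at -0.67, -0.34 and -1.05 in subfertile bulls 1, 4 and 5, against -1.08, -0.15 and -0.68 in high-fertile bulls 2, 3 and 5, also all below 0. For TUBGCP4, IP was well above background in 5 of 6 subfertile and 3 of 6 high-fertile spots. For TEKT5 it was so in 3 of 3 subfertile and 2 of 3 high-fertile spots.

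By role, the class medians of these means ran from -0.42 in the axonemal dynein chains (3 tested) and -0.38 in the tubulins and gamma-tubulin complex (8 tested) to 0.12 in cytoplasmic dynein (4), 0.20 in the spoke and nexin-link genes (2) and 0.44 in intraflagellar transport (3). Tektins and outer dense fibre genes (7) had a median of -0.32 and kinesins (9) of 0.00. Within kinesins the means ran from -0.43 to 0.99, and over the whole list from -0.82 to 1.17.

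**Figure D5:**
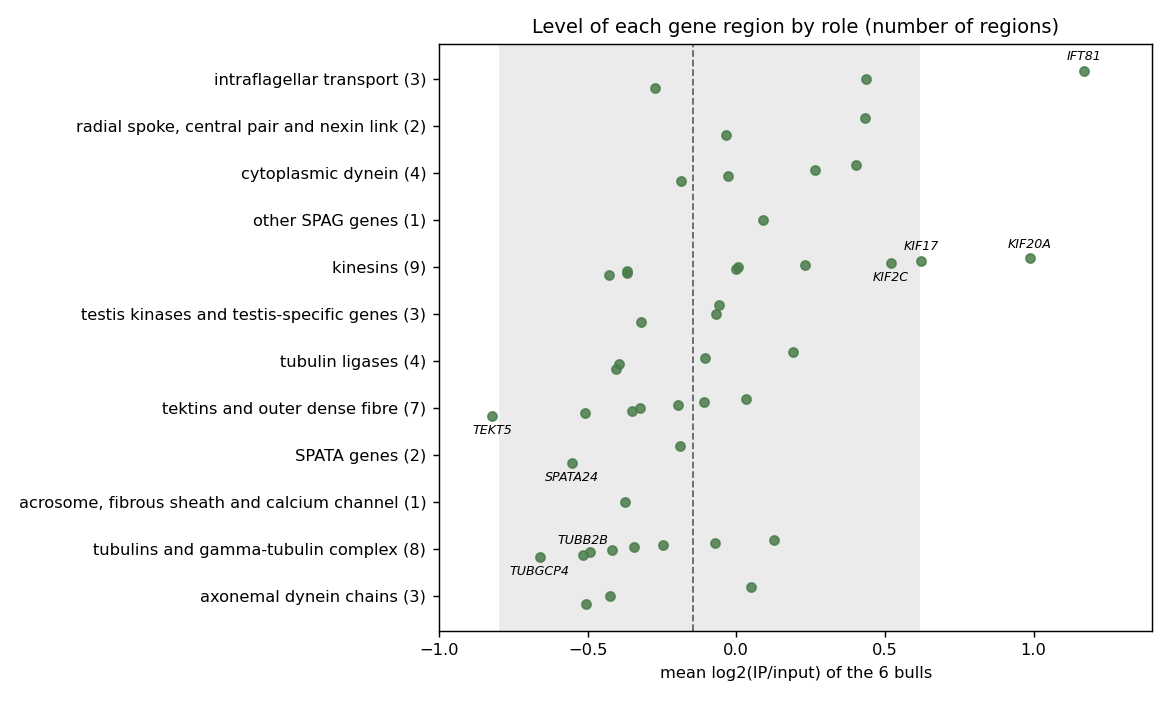
Mean log2(IP/input) of the 6 bulls for each of the 47 gene regions, in rows by role with the number of regions; the shaded band holds the 5th to 95th percentile of all named gene regions and the dashed line is their median (-0.14). IFT81, KIF20A and KIF17 lie above the band and TEKT5 below it.

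Probes of 1 gene did not always share a level. IFT57 probe 1 averaged 1.55 over the 6 bulls and was above 0 in every bull, at 1.24, 0.67 and 3.54 in subfertile bulls 1, 4 and 5, against 0.57, 0.88 and 2.41 in high-fertile bulls 2, 3 and 5. Probe 2, printed beside it above, starts 1669 bp away and averaged -0.01, and probe 3 averaged -0.24. In GAS8 probe 1, which has no CpG, averaged -0.27, while the 3 overlapping probes that start 12072 bp further on averaged 0.55, 0.81 and 0.64. The DYNC1H1 probes ranged from -0.51 (probe 3) to 0.66 (probe 1), both negative and positive values being measured in the same bulls. The 3 probes of TUBB2B, at -0.42, -0.42 and -0.70, were alike in sign, as were the 3 of TTLL4 (-0.05, -0.25 and -0.02) and of DYNLRB1 (-0.22, -0.20 and -0.14).

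The probes of these genes are poor in CpGs. The 205 probes of these genes hold 1.31 CpGs on average and 34.1% hold none, against 1.502 and 33.1% for all named probes and 2.53 and 9.85% for all probes. Among tested probes of these genes, the median level was -0.25 with no CpG (10 probes), -0.05 with 1 (20), 0.05 with 2 (20) and -0.23 with 3 or more (30). The 10 probes with no CpG had medians of -0.53, -0.81 and -0.80 in later-session bulls (subfertile 1 and 5, high-fertile 5), against 0.08, -0.08 and 0.47 in first-session bulls (subfertile 4, high-fertile 2 and 3). Over all tested probes with no CpG the same medians were -0.08, -0.16 and -0.10 in the later session, against -0.01, -0.08 and 0.09 in the first. The part of CpG content in the class and session differences was not tested.

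The 37 genes without a tested probe include much of the axoneme proper: DNAH7 and DNAL4 of the dynein arms, CCDC39, RSPH10B, SPAG6, SPAG17 and SPEF1 of the spokes, central pair and ruler, and DYNC2LI1, IFT52 and IFT80 of transport. They hold 82 probes, 40 of them without a CpG. Without any filter their median level was -0.15, 1.08 and 0.20 in subfertile bulls 1, 4 and 5, against 1.595, 1.33 and 0.06 in high-fertile bulls 2, 3 and 5. The 3 first-session bulls are the 3 highest. The median difference was -0.60, with 33 of 37 (89.2%) below 0. Over all 3646 named regions without a tested probe it was -0.45, with 80.6% below 0. In these genes every probe had an input spot on at least 1 array that was not well above background. With no filter and session as a term, the median over all 84 genes was -0.03, against 0.007 over all 7932 named regions. In that fit limma called 0 of 84 and 0 of the 7932. At an unadjusted p under 0.05 there were 0 of the 84 and 289 of the 7932.

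As a check of the sample label, imprinted regions were read in the same arrays. Paternally marked RASGRF1, RTL1 and H19 averaged -0.15 (7 probes), 0.08 (11) and 0.05 (1), and maternally marked SGCE, PEG10 and IGF2R averaged -0.74 (6), 0.02 (21) and 0.28 (3). SGCE was low in all 6 bulls, and the other 5 did not separate by parental mark. The array cannot show marker expression of other cells in semen. Probes named for 2 of 8 leukocyte genes and 4 of 6 epithelial genes were tested, and limma called none of them between the classes.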

How the data were processed

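Per the file headers, the deposited scanner tables hold spot intensities extracted with Agilent Feature Extraction 10.7.3.1, and a deposited log10 ratio of red (IP) over green (input). The series table, also deposited, gives that ratio on a log2 scale, within 7.77e-07 of the scanner ratio at every compared probe. Genes were named from the 3 first-session files, whose probe names all 6 files share. From the processed intensities log2(IP/input) was computed and centred on each array's median, without loess or quantile steps. Fits used limma 3.58.1 (R 4.3.3) over all 4286 named gene regions or 110686 probes, 2-sided, with Benjamini-Hochberg adjustment at 0.05; figures and tables used Python 3.11.15, pandas 2.3.3 and matplotlib 3.10.9. The class fit was tested on 4286 simulated regions, 200 of them changed, with independent noise between arrays and no scan session. It called 0 of the 200 at a difference of 1 log2 unit. At 2 units it called 155 (77.5%), with 9 unchanged regions also called. Neighbours within 1000 bp were read after the values were seen. Members and lists were chosen with earlier results of these data known. Genes named with values were the regions or probes whose classes did not overlap (up to 4 and 3 per direction), the 4 highest and 4 lowest levels, up to 3 per direction for session, those with 3 or more tested probes and 1 per role class; exceptions are stated. Alternatives were the filter, normexp (offset 50), centring, probe summary, deposited table, session, slide and leaving out each bull. In the list of other pathway genes, the session result of a single gene is not reported here.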

Additional observations from a re-analysis of the deposited data

How the results depend on the processing

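No paired analysis was possible because the classes share only replicate number 5, which marks different bulls. With 3 bulls a class and 1 array per bull, no array can be checked against a repeat, and 30 of the 47 regions rest on 1 probe.

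No alternative raised the count of called members above 0 for subfertile against high-fertile, except the later session alone (1). The median difference, 0.12, was -0.023 in the later session alone, -0.30 with no filter and -0.031 with no filter and session as a term, an alternative chosen after seeing the data; leaving out bulls gave 0.054 to 0.14. The session count, 8, was 13 without the class term, 28 of 84 with no filter, 1 of 7 with at least 3 probes, 15 with normexp and 13 when centred on tested probes, and ran from 0 to 14 with a bull left out. With no filter 2793 of all 7932 regions were called, and in the main fit 861 of 4286. The other counts stand without the share over all regions and do not set these genes apart. Over all regions, 36.4% of session calls were higher in the later session, 16.3% when centred on tested probes (where the median of all regions shifts to -0.23), 58.8% with normexp, 67.3% with at least 3 probes and 5.98% with no filter. The level relative to all regions, 0.0085, was 0.14 with at least 3 probes.

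Among the genes recomputed under every alternative, directions of uncalled class differences turned as follows; the cause was not tested. With no filter, DNAH2 gave -0.11, DYNLRB1 -0.18, KIF11 -0.20, SPAG7 0.023, TCP11 -0.37 and TUBB2B -0.048, and the TCP11 session difference -0.39. In the later session alone, DNAH2 gave -0.13, DYNC1H1 -0.16, GAS8 -0.090, KIF5C -0.41, SPAG5 0.22, SPATA24 -0.23 and TCP11 -0.042. With session as a term, DYNC1H1 gave -0.063, KIF5C -0.086 and SPAG5 0.057; over all 47 regions it turned 14, among them also IFT81, KIF17, KIF20A, RSPH1, ODF1, TEKT1 and TEKT5. DNAH2 gave -0.069 under the stricter filter and -0.072 centred on tested probes. TTLL4 gave 0.11 under the stricter filter, 0.21 with the median over probes and 0.020 with normexp, and TUBGCP5 gave -0.10 with normexp. Leaving out bulls gave -0.069 to 0.11 for DNAH2, -0.10 to 0.37 for DYNC1H1, -0.075 to 0.46 for KIF5C, -0.31 to 0.054 for TTLL4 and -0.39 to 1.31 for TUBGCP5.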
